A study of Mus musculus with 6 samples.

Results

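The parathyroid hormone-related protein gene Pthlh, the secretin gene Sct and the genes of their receptors, Pth1r and Sctr, were followed in forelimb bud ectoderm of mouse embryos at E10.5 with and without Sp8, a DNA-binding zinc finger protein made in limb ectoderm. They are 4 of the 49452 genes in the table and were found by symbol. Pthlh and Sct were chosen because they were among the largest FPKM increases and decreases between these same groups, so their differences are described and not tested. The receptors were added for their ligands and not for values of their own.

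The Sp8 null group held 3 embryos from crosses of heterozygotes for the Sp8-Cre-ERT2 allele, and the wild-type group held 3 embryos from separate crosses of C57BL/6 mice, so the groups were not littermates. All samples are labelled with the C57BL6J background. Each library was made from polyadenylated RNA of the ectoderm of both forelimbs of 1 embryo, freed with trypsin. Values are FPKM, fragment counts scaled by transcript length and by the size of the library, which allows levels of different genes to be compared per length.

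Parathyroid hormone-related protein acts locally rather than as a circulating hormone: in the mammary bud and the hair follicle it is made by epithelium, and its receptor lies in the mesenchyme beneath. Pth1r is a class B G protein-coupled receptor that raises cyclic AMP through Gs and can also act through Gq. Secretin is best known as a hormone of the duodenum, and its receptor Sctr is a class B receptor coupled to Gs. Both peptides are cut from longer precursors by prohormone convertases, and secretin is amidated at its end by the enzyme Pam.

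Pthlh (ENSMUSG00000048776) lies on chromosome 6 at 147252101 to 147264183 and Sct (ENSMUSG00000038580) on chromosome 7 at 141278330 to 141279133, both on the minus strand of GRCm38. Pth1r (ENSMUSG00000032492) lies on chromosome 9 at 110722085 to 110747145 on the minus strand, and Sctr (ENSMUSG00000026387) on chromosome 1 at 120006894 to 120063536 on the plus strand. All 4 are protein-coding. The exons of Pth1r overlap those of Myl3 on the other strand, and Myl3 was listed at 0 in 5 of the 6 libraries and at 0.0419 FPKM in wild-type embryo 3. The exons of the other members overlap no other gene.

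The stretches of DNA just before the annotated starts of both hormone genes are shown because Sp8 belongs to a family of proteins that bind GC-rich boxes. They come from RefSeq windows of 300 bases on GRCm38.p6, with the part before every annotated transcript start printed 5′ to 3′ on the gene's strand. Capitals mark the GC box, searched as GGGCGG or its reverse complement CCGCCC. The stretches are chr6:147264184-147264263 (minus strand) for Pthlh and chr7:141279175-141279383 (minus strand) for Sct.
Pthlh: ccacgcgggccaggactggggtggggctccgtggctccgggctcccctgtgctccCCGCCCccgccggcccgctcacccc
Sct: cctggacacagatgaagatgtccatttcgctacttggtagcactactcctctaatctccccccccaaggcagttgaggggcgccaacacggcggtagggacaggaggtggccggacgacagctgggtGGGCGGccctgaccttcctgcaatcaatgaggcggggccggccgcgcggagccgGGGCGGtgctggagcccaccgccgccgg
The printed stretch of Pthlh holds 1 GC box and that of Sct holds 2. In the whole windows of 300 bases the counts were 4 for Pthlh and 2 for Sct. At least 1 GC box was found in 35.7% of all 32851 windows, at least 2 in 19.5% and at least 4 in 5.49%. Pth1r has 3 windows, which held 0, 1 and 4 GC boxes in order from the most upstream start, and Sctr had no window in the table. These are matches of letters, and binding was not measured.

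Each library was checked first. Sp8 ranged from 8.345 to 13.5 FPKM in wild type and from 0.46 to 1.14 FPKM in Sp8 null, so each library matched its genotype label. Sequencing depth, which FPKM gives only as a ratio between libraries, was 0.847 to 1.042 of that of wild-type embryo 1. The summed level of 16 ectoderm markers was 1168 to 1291 FPKM in wild type and 962.2 to 1244 FPKM in Sp8 null. In the test across genes described below, 3 of these 16 were called at an adjusted p under 0.05, in both directions. Tfap2a was higher in Sp8 null (log2 difference 0.52, limma adjusted p = 0.0163), and Epcam (-0.53, 0.0313) and Cldn7 (-0.57, 0.0266) were lower. The summed level of 18 limb mesenchyme markers was 125.3 to 171.1 FPKM in wild type and 135.0 to 248.5 FPKM in Sp8 null, with the highest value in Sp8 null embryo 2. Members of this list did not move together, so the sum is only a rough measure of mesenchyme content. Prrx1 was at 3.918 FPKM in wild-type embryo 2 and at 53.34 FPKM in Sp8 null embryo 2. Pdgfra had means of 21.64 FPKM in wild type and 10.64 FPKM in Sp8 null, and its groups did not overlap. Summed erythroid markers were highest in wild-type embryo 1, at 429.4 FPKM against 11.8 to 165.0 FPKM in the other libraries.

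Pthlh was at 0.950, 0.799 and 0.395 FPKM in wild-type embryos 1, 2 and 3, and at 4.61, 3.86 and 5.57 FPKM in Sp8 null embryos 1, 2 and 3. The groups did not overlap, and the lowest null library was 4.07 times the highest wild-type library. The means were 0.714 ± 0.287 FPKM in wild type and 4.68 ± 0.858 FPKM in Sp8 null (SD, n = 3 each), a ratio of 6.55. As log2(FPKM + 1), where the added 1 shrinks differences of low genes, the difference was 1.73 (SE 0.17). The authors' deposited table gave group means of 42.83 and 283.87 on its normalized scale of read counts. Its fold change of 4.59 is smaller than the ratio of these means. Pthlh was above 49.3% of the 21659 protein-coding genes in wild type and above 67.2% in Sp8 null.

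Sct was at 7.90, 7.91 and 14.5 FPKM in wild-type embryos 1, 2 and 3. In Sp8 null embryos 1 and 3 it was at 0.494 and 0.447 FPKM, and in Sp8 null embryo 2 it was listed at 0. The groups did not overlap, and the lowest wild-type library was 16.01 times the highest null library. The mean was 10.1 ± 3.81 FPKM in wild type (SD, n = 3). The difference on the log2(FPKM + 1) scale was -3.05 (SE 0.25). The authors' deposited table gave group means of 134.3 in wild type and 4.86 in Sp8 null, with a fold change of -6.37. This fold change is smaller in size than the ratio of these means. Sct was above 78.2% of protein-coding genes in wild type and above 44.1% in Sp8 null.

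In the wild-type group, embryo 3 had both the highest Sct and the lowest Pthlh value. Sp8 null embryo 2, the library with the highest mesenchyme and lowest ectoderm marker sum, had the lowest Pthlh value of its group and Sct listed at 0. None of the 18 mesenchyme markers was listed at 0 in every library. Without that library the log2 difference was 1.84 for Pthlh and -2.87 for Sct. The part of the marker levels in these differences was otherwise not tested. Sample names begin with a number, 4 or 5, whose meaning is not given in the sources used here. Among the 4 libraries whose sample names begin with 5, Pthlh was at 3.86 and 5.57 FPKM in Sp8 null against 0.799 and 0.395 FPKM in wild type. Sct was at 0 and 0.447 FPKM against 7.91 and 14.5 FPKM in the same libraries. The libraries whose names begin with 4 were 1 of each genotype and held the same order for both genes. In these bulk samples, fewer cells of a type and less RNA per cell cannot be told apart.

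**Figure D1:**
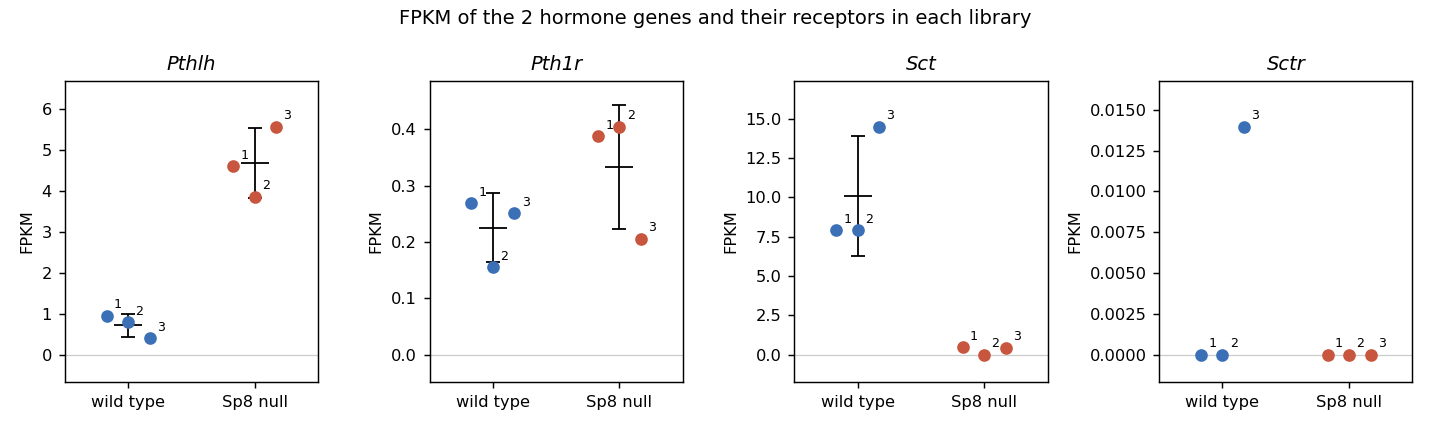
FPKM (y axes, linear, each with its own range) of Pthlh, Pth1r, Sct and Sctr in 3 wild-type (blue) and 3 Sp8 null (red) libraries, numbered by embryo. Black marks show mean ± SD where no library of the group was listed at 0. Pthlh and Sct values separate by genotype in opposite directions, while Pth1r values overlap between 0.206 and 0.269 FPKM and Sctr was listed at 0 in 5 of 6 libraries.

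Pth1r, the receptor of parathyroid hormone and its related protein, was at 0.269, 0.156 and 0.251 FPKM in wild-type embryos 1, 2 and 3, and at 0.388, 0.405 and 0.206 FPKM in Sp8 null embryos 1, 2 and 3. The groups overlapped, since Sp8 null embryo 3 lay below 2 of the wild-type libraries. The means were 0.225 ± 0.0609 and 0.333 ± 0.110 FPKM (SD, n = 3 each), a ratio of 1.48. No library reached 1 FPKM, the minimum for the test, so the comparison rests on the fit without that minimum. There the log2 difference was 0.120 (SE 0.078, limma, Benjamini-Hochberg adjusted p = 0.582). An exact two-sided permutation test over the libraries gave p = 0.3, where 3 against 3 libraries cannot go below 0.1. The authors' deposited table listed a fold change of 1.22 and a p-value of 0.224 for Pth1r. The receptor was thus measured at a low level in both groups, and no difference beyond the spread between embryos was found with all 6 libraries. When each library was left out, the log2 difference lay between 0.0781 (SE 0.085, without wild-type embryo 2) and 0.19 (SE 0.058, without Sp8 null embryo 3). The result thus depends on Sp8 null embryo 3. The added 1 shrinks differences at this level, so a difference between the groups is not excluded.

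Sctr was listed at 0 in all 3 Sp8 null libraries and in wild-type embryos 1 and 2, and at 0.0140 FPKM in wild-type embryo 3. The authors' deposited table gave means of 0.32 in wild type and 0 in Sp8 null. No fold is given between groups at this level. Sct transcript was therefore found in wild-type ectoderm in which the transcript of its receptor was at or near the lowest values of the table.

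In wild type the order of levels was Sct, Pthlh, Pth1r and Sctr, and no neighbours in this order overlapped across the 3 libraries. In Sp8 null Pthlh came first. Pth1r, from 0.206 to 0.405 FPKM, and Sct, from 0 to 0.494 FPKM, overlapped, and Sctr was last at 0.

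The other ligands and receptors of these families were followed in the same libraries. For the comparison across genes, the 12133 genes that reached 1 FPKM in 3 or more libraries were tested with limma, and 6.83% were called at an adjusted p under 0.05. The share called higher in Sp8 null was 1.68% and the share called lower was 5.15%. When libraries were scaled to a fixed sum over protein-coding genes, the calls split into 399 higher and 419 lower, beside 204 and 625 here. The groups did not overlap for 29.8% of tested genes. A gene that reaches the minimum in only 1 group is bound to differ, and this holds for Pthlh, which passed through Sp8 null alone, and for Sct, which passed through wild type alone.

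Of the PTH family, Pth and Pth2, the genes of parathyroid hormone and of the ligand of the related receptor Pth2r, were listed at 0 in every library. Pth2r itself did not exceed 0.0542 FPKM in any library. Pthlh was the 1 member of 5 above the minimum for the test.

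Among the 6 secretin family ligands, Vip, Gip and Ghrh, which encode vasoactive intestinal peptide, a gut incretin and growth hormone-releasing hormone, were listed at 0 throughout. Gcg, the proglucagon gene, was the other ligand whose groups did not overlap. It was at 2.08, 0.972 and 0.737 FPKM in wild-type embryos 1, 2 and 3, at 0.0608 FPKM in Sp8 null embryo 1 and listed at 0 in Sp8 null embryos 2 and 3. Gcg was thus low in the same genotype as Sct, but the highest wild-type library was embryo 1 for Gcg and embryo 3 for Sct. Gcg missed the minimum for the test, and in the fit without it the log2 difference was -1.105 (SE 0.218, limma adjusted p = 0.0937). The authors' deposited table gave means of 48.69 in wild type and 0.4 in Sp8 null, with a fold change of -3.81. Adcyap1, which encodes the peptide PACAP, reached at most 0.216 FPKM, in wild-type embryo 3.

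None of the 9 secretin family receptors reached the minimum, and the highest value among them was 0.53 FPKM, for Vipr2 in Sp8 null embryo 3. Adcyap1r1, the PACAP receptor, was at 0.191, 0.115 and 0.0883 FPKM in wild-type embryos 1 to 3, and at 0.0322, 0.0196 and 0.0272 FPKM in Sp8 null embryos 1 to 3. Glp1r, which binds a product of proglucagon, was listed at 0 in all wild-type libraries and was at 0.108, 0.199 and 0.107 FPKM in Sp8 null embryos 1 to 3. The groups did not overlap for either gene, and in the fit without the minimum neither passed (limma adjusted p = 0.172 for Adcyap1r1 and 0.0899 for Glp1r). The authors' deposited table lists p-values of 3e-06 for Adcyap1r1 and 0.000718 for Glp1r. Vipr1, Gipr, Gcgr and Glp2r were at most 0.179, 0.114, 0.0406 and 0.0654 FPKM in any library, and Ghrhr was listed at 0. Vipr2 had a mean of 0.304 ± 0.103 FPKM in wild type and 0.276 ± 0.221 FPKM in Sp8 null (SD, n = 3 each), within the spread of the embryos on the FPKM scale. The authors' deposited table differs here, with means of 32.49 in wild type and 13.02 in Sp8 null, a fold change of -1.62 and a p-value of 0.00363.

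The calcitonin and corticotropin-releasing hormone families share this receptor class. Their 9 ligand genes stayed at or below 0.422 FPKM. Of their 7 receptors and receptor partners, 2 were tested and both were called, 1 in each direction. Ramp3, a single-pass protein that alters the ligand choice of class B receptors, was at 0.792, 0.380 and 0.722 FPKM in wild-type embryos 1 to 3, and at 2.145, 1.838 and 1.996 FPKM in Sp8 null embryos 1 to 3. It rose by 0.88 on the log2 scale (SE 0.14, limma adjusted p = 0.0116), with an adjusted p of 0.0505 when Sp8 null embryo 1 was left out and 0.062 in the fit without the minimum. Crhr1, a receptor of corticotropin-releasing hormone, was at 2.07, 2.06 and 1.54 FPKM in wild type and at 0.7495, 0.6556 and 0.791 FPKM in Sp8 null. It fell by 0.73 on the log2 scale (SE 0.12, limma adjusted p = 0.0158), and lost its call in 6 of 16 alternatives, with adjusted p-values from 0.00884 to 0.0716, the highest in the fit without the minimum. Both passed the minimum through 1 group alone, so they were bound to differ. Calcr, the calcitonin receptor, was below the minimum, at 0.514, 0.811 and 0.400 FPKM in wild type and 0.134, 0.147 and 0.256 FPKM in Sp8 null (fit without the minimum, limma adjusted p = 0.171). The authors' deposited table lists a fold change of -1.92 and a p-value of 3.8e-05 for Calcr.

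**Figure D2:**
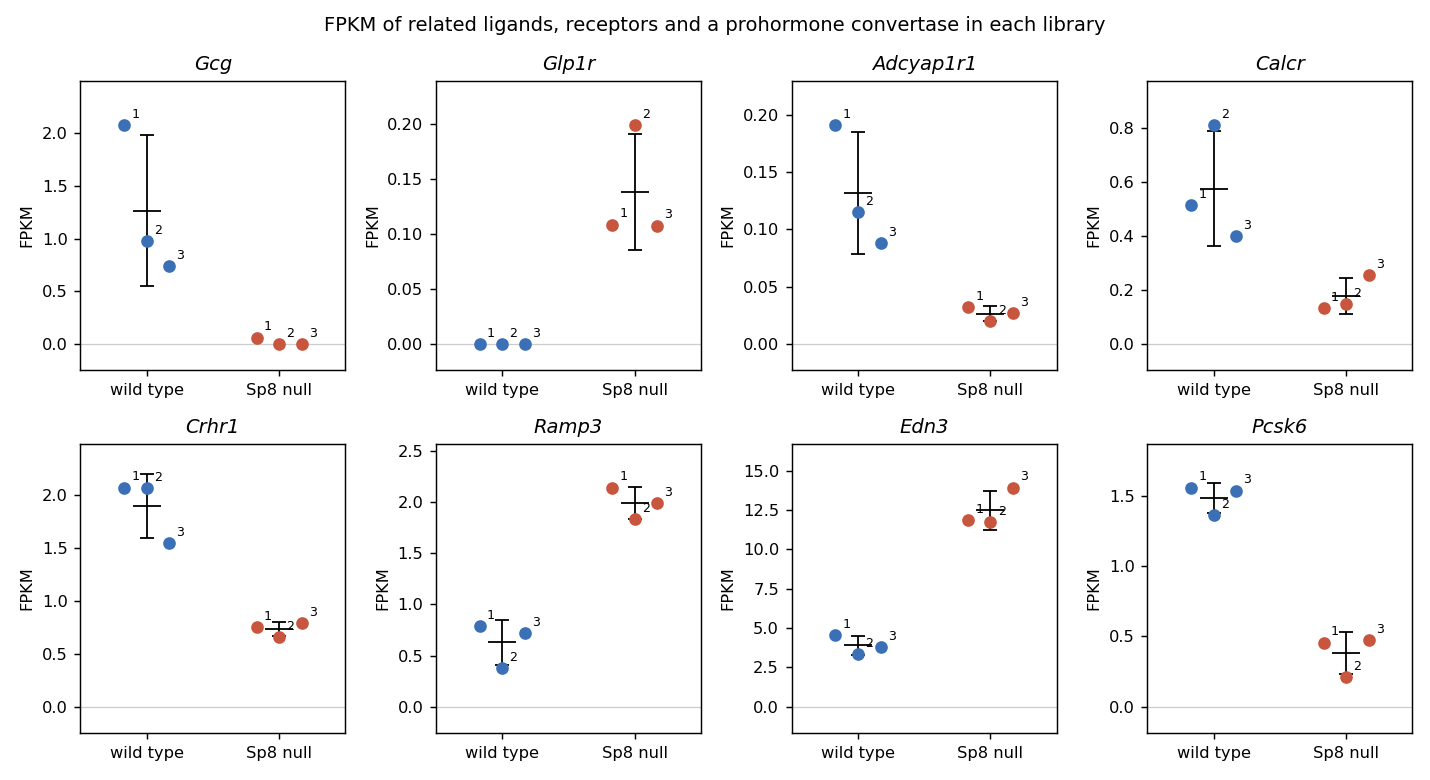
FPKM (y axes, linear, each with its own range) of 8 genes related to the 2 hormones in 3 wild-type (blue) and 3 Sp8 null (red) libraries, numbered by embryo, with mean ± SD in black where no library of the group was listed at 0. The groups do not overlap in any panel, but the genes shown are a chosen set. Related genes whose groups overlap, such as Vipr2, Furin and Pam, are not shown. The groups did not overlap for 46 of the 192 list members other than markers, Pthlh and Sct, and for 29.8% of all tested genes. Glp1r, Ramp3 and Edn3 are higher and the other 5 genes lower in Sp8 null, at levels from at most 0.199 FPKM for Glp1r to 13.9 FPKM for Edn3.

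Genes that process prohormones came next. Of 18, 9 were tested and 2 were called, both lower in Sp8 null, or 22.2% beside 6.83% of all tested genes. Pcsk6 encodes a proprotein convertase, and was at 1.56, 1.36 and 1.54 FPKM in wild-type embryos 1 to 3 and at 0.456, 0.210 and 0.476 FPKM in Sp8 null embryos 1 to 3. It fell by 0.85 on the log2 scale (SE 0.13, limma adjusted p = 0.0106), and passed the minimum through wild type alone. Pcsk5, a related convertase, was at 8.17, 7.76 and 6.58 FPKM in wild type and at 4.05, 3.12 and 4.39 FPKM in Sp8 null. It fell by 0.81 (SE 0.13, limma adjusted p = 0.0132), with an adjusted p of 0.0589 when wild-type embryo 2 was left out and 0.0621 in the fit without the minimum. Pcsk1, the convertase of endocrine cells, was below the minimum, with means of 0.282 ± 0.0758 FPKM in wild type and 0.0780 ± 0.0635 FPKM in Sp8 null (SD, n = 3 each; fit without the minimum, limma adjusted p = 0.157). The authors' deposited table lists a fold change of -2.06 and a p-value of 1.5e-05 for Pcsk1. Furin, a convertase found in most cells, had means of 4.05 ± 0.321 and 4.52 ± 0.302 FPKM in wild type and Sp8 null, and Pam had means of 4.95 ± 0.247 and 5.46 ± 0.600 FPKM. Neither was called (limma adjusted p = 0.459 and 0.525). The carboxypeptidase gene Cpe was the most abundant of this list, with 17.4 ± 3.70 FPKM in wild type and 15.8 ± 2.41 FPKM in Sp8 null (limma adjusted p = 0.689).

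Downstream of the receptors, 1 of 13 tested genes of Gs, adenylyl cyclases and protein kinase A was called. That is 7.69% beside 6.83% of all tested genes. Adcy1, an adenylyl cyclase, was at 1.328, 1.004 and 1.173 FPKM in wild-type embryos 1 to 3 and at 2.22, 1.94 and 1.93 FPKM in Sp8 null embryos 1 to 3. It rose by 0.48 on the log2 scale (SE 0.11, limma adjusted p = 0.0469) but kept its call in only 5 of 16 alternatives, with adjusted p-values from 0.0283 to 0.157. Gnas, the gene of Gs alpha, was among the most abundant genes of these lists, with 216 ± 4.07 FPKM in wild type and 211 ± 19.8 FPKM in the null embryos (SD, n = 3 each), a log2 difference of -0.04 (SE 0.08, limma adjusted p = 0.826). Prkacb, a catalytic subunit, was listed at 0 in Sp8 null embryo 2 with a failed estimate and at 20.05 to 20.6 FPKM in the other 5 libraries, so its log2 difference of -1.48 rests on that value.

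No member was called by limma among the phosphodiesterases (4 tested), the Gq and phospholipase C genes (8 tested), the CREB factors (11 tested), the genes induced by cyclic AMP (10 tested) and the receptor kinases, arrestins and scaffolds (10 tested). At an unadjusted p under 0.05 these lists held 0, 2, 3, 0 and 2 genes, beside 2914 of all 12133 tested genes. Their median log2 differences were 0.07, -0.17, -0.06, 0.03 and -0.05, beside -0.06 over all tested genes. In each list the lowest p-value belonged to Pde3b (log2 difference -0.24, limma adjusted p = 0.218), Plcb1 (-0.41, 0.113), Creb1 (-0.19, 0.12), Ppargc1a (0.67, 0.311) and Arrb1 (-0.39, 0.142). For Ppargc1a, a coactivator induced by cyclic AMP, the highest library was Sp8 null embryo 2 at 3.73 FPKM, against 0.297 to 1.47 FPKM elsewhere. Nr4a1, Nr4a3, Fos and Areg of the same list were below the minimum. Nr4a1 had means of 0.747 FPKM in wild type and 0.332 FPKM in Sp8 null, and Fos of 0.176 and 0.476 FPKM. In the fit without the minimum neither passed (limma adjusted p = 0.119 and 0.297). The authors' deposited table lists p-values of 0.000122 for Nr4a1, 0.000146 for Fos, 0.00303 for Nr4a3 and 0.497 for Areg.

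**Figure D3:**
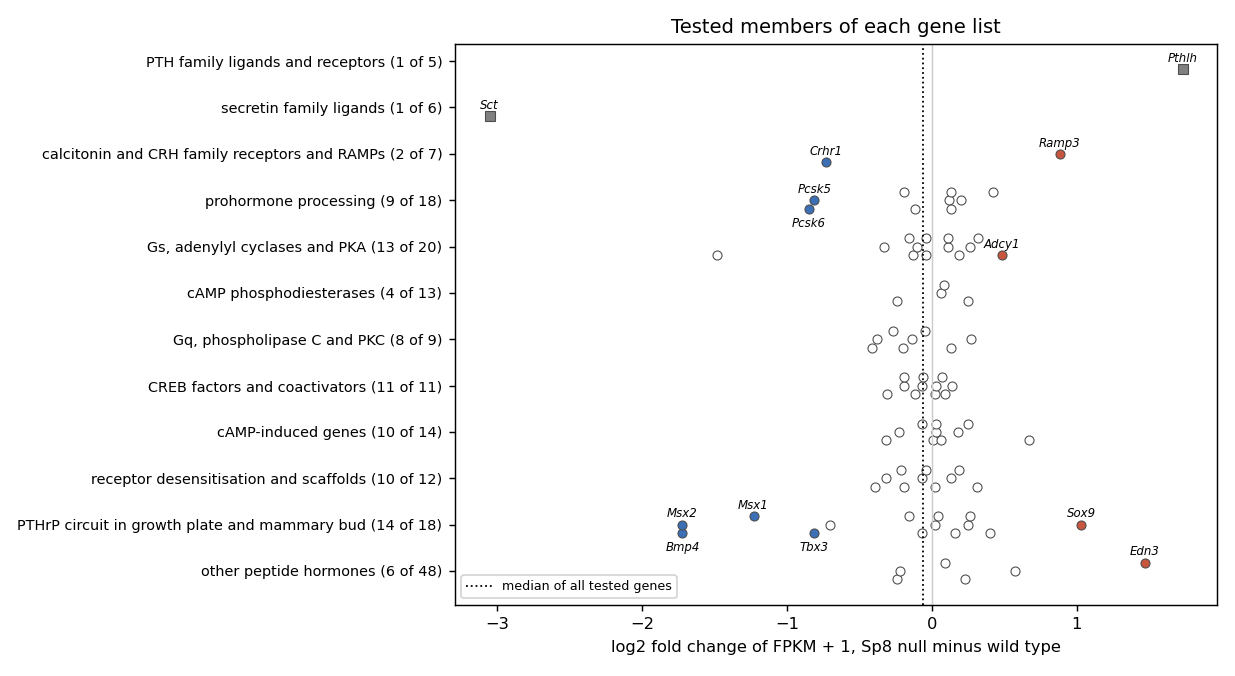
Log2 fold change of FPKM + 1, Sp8 null minus wild type (x axis), of every tested member of each gene list (rows, with tested and total members in brackets). Filled circles passed an adjusted p of 0.05, open circles did not, grey squares are the 2 genes chosen by their difference, and the dotted line is the median of all tested genes at -0.06. Most signalling genes lie near that line, and the open circle at -1.48 is Prkacb.

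Genes that work with parathyroid hormone-related protein in other tissues were taken from the growth plate and the mammary bud, where it acts with Indian hedgehog and with BMP signalling. Ihh itself did not exceed 0.0381 FPKM. Of 18 genes 14 were tested, 4 were called lower and 1 higher, or 35.7% beside 6.83% of all tested genes. Bmp4, a BMP ligand, fell by 1.72 on the log2 scale (SE 0.10, limma adjusted p = 0.000124), from 126 ± 5.59 to 37.7 ± 4.54 FPKM (SD, n = 3 each). Msx2, a BMP-responsive homeobox gene through which the protein acts in mammary skin, fell by 1.72 (SE 0.07, limma adjusted p = 1.62e-05). Msx1 fell by 1.23 and Tbx3, a T-box factor needed for mammary buds, by 0.81 (limma adjusted p = 0.00467 and 0.00592). Sox9, a chondrocyte and epithelial progenitor factor, rose by 1.03 (SE 0.10, limma adjusted p = 0.00182). Among readouts of hedgehog signalling, named after their values were seen, Ptch1 and Gli1 differed in their values. Ptch1, the hedgehog receptor gene, was at 40.8, 44.6 and 40.4 FPKM in wild-type embryos 1 to 3 and at 31.9, 18.2 and 28.3 FPKM in Sp8 null embryos 1 to 3. Its groups did not overlap, and it missed the threshold (log2 difference -0.70, SE 0.19, limma adjusted p = 0.0686). Gli1 had means of 2.16 ± 0.212 FPKM in wild type and 2.21 ± 0.338 FPKM in Sp8 null (limma adjusted p = 0.948).

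Other peptide hormones were mostly below the minimum for the test: 22 of 48 were listed at 0 in every library and 6 were tested. The share called was 16.7% beside 6.83% of all tested genes. Edn3, the endothelin that acts on neural crest and melanocyte precursors, was called. It was at 4.54, 3.32 and 3.81 FPKM in wild-type embryos 1 to 3 and at 11.9, 11.7 and 13.9 FPKM in Sp8 null embryos 1 to 3. It rose by 1.47 on the log2 scale (SE 0.12, limma adjusted p = 0.000627). Penk, the enkephalin precursor gene, was at 3.67 ± 0.236 FPKM in wild type and 5.98 ± 1.17 FPKM in Sp8 null and missed the threshold (log2 difference 0.57, limma adjusted p = 0.0502). Nmb, Stc1, Tac2 and Insl6 had means between 0.788 and 2.06 FPKM in each group and were not called. Apela, which encodes a ligand of the apelin receptor, was below the minimum and was at 3.14 FPKM in Sp8 null embryo 2 against 0.0351 to 0.677 FPKM in the other libraries.

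Across these lists, with markers, Pthlh and Sct left out, 11 of 82 tested genes were called, or 13.4% beside 6.83% of all tested genes. Of the 11 genes 5 were in the growth plate and mammary bud list. Ramp3, Crhr1 and Pcsk6 are 3 of the 11 and passed the minimum through 1 group alone, so they had to differ. The lists were also chosen with earlier results of these data known, so the share supports nothing and is a description.

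Neighbouring genes were listed for each member, the 5 nearest protein-coding genes on each side. Of 40 neighbours 21 were tested and 1 was called, or 4.76% beside 6.83%. It was Tmtc1, the gene of an endoplasmic reticulum mannosyltransferase, on the same chromosome as Pthlh at 148232430 to 148444389. Tmtc1 fell by 0.93 on the log2 scale (SE 0.11, limma adjusted p = 0.00351), from 3.20 ± 0.365 to 1.2 ± 0.0513 FPKM, the opposite direction to Pthlh. The nearest tested genes on the sides of Pthlh were Klhl42 (log2 difference -0.10, limma adjusted p = 0.623) and Ccdc91 (0.02, 0.899). Near Sct, Deaf1 had a log2 difference of -0.24 and Phrf1 of -0.28 (limma adjusted p = 0.488 and 0.17). Rassf7, near Sct, was not called here (log2 difference 0.26, limma adjusted p = 0.115) but was called higher in Sp8 null under all 3 other scalings between libraries, with log2 differences from 0.33 to 0.37.

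The genes most like each hormone gene over the 6 libraries were taken by Pearson's r of log2(FPKM + 1) among 1018 tested genes with a range of at least 1. With only 6 libraries in 2 groups, any gene whose groups stand apart reaches a high r, and the values are given without a test. For Pthlh they were Ripply3 (0.9995), Slc8a3 (0.9961), Map1b (0.9908), Sox9 (0.9905) and Asprv1 (0.9849). For Sct they were Eya2 (0.9989), Sema6d (0.998), Dlx4 (0.9973), Cyp26a1 (0.9962) and Carmil1 (0.9956). Ripply3, a transcriptional corepressor, was at 1.03 ± 0.234 FPKM in wild type and 4.02 ± 0.656 FPKM in Sp8 null (SD, n = 3 each), close to the levels of Pthlh. Cyp26a1, an enzyme that clears retinoic acid, was at 5.14 ± 0.627 FPKM in wild type and 1.13 ± 0.194 FPKM in Sp8 null.

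The difference of Pthlh lay between 1.59 and 1.84, and that of Sct between -3.18 and -2.78, when each library was left out in turn. A smaller pseudocount moved both values away from 0, to 2.77 for Pthlh and -6.20 for Sct with 0.01.

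**Figure D4:**
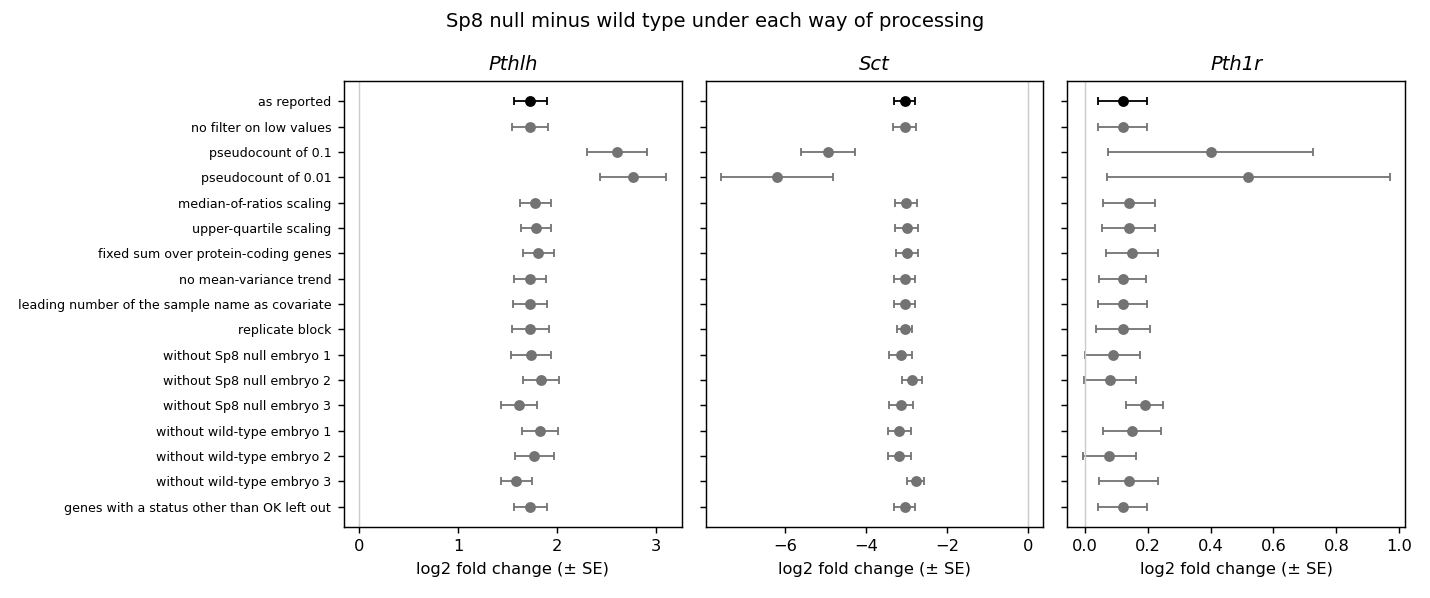
Log2 fold change, Sp8 null minus wild type (x axes, bars ± SE), of Pthlh, Sct and Pth1r as reported (black) and under each other way of processing the FPKM values (grey, one per row). Pthlh stays above 0 and Sct below 0 in every row, with the largest shifts under the 2 smaller pseudocounts. Pth1r lies between 0.0781 and 0.52, with SE bars that reach 0 or lie near it in several rows.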

How the data were processed

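The authors deposited FPKM for 49452 genes of Ensembl build 87 in each of 6 libraries, per the file headers. TopHat2, Cufflinks, SAMtools, DESeq2, FastQC and GRCm38 are named per the submitters' processing notes, without roles or versions, and use of strand is not given in the sources used here. The deposited table also holds a mean signal per group, a fold change as a signed score and a p-value whose test is not stated. Those were only quoted. The deposited fold changes of Pthlh, Sct and Gcg are smaller in size than the ratios of their deposited means. How the fold changes were made is not given in the sources used here. The means headed control and sample were taken as wild type and Sp8 null.

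FPKM was analysed as log2(FPKM + 1) with limma 3.58.1 in R 4.3.3, with genotype as the only term, a mean-variance trend and Benjamini-Hochberg adjustment over the 12133 genes at 1 FPKM or more in at least 3 libraries. Counts per library were not used here. The fit was tested on simulated data. Genes below the minimum were read from a fit of all 27766 genes above 0 in any library. In 31 tested genes an estimate was not marked OK in some library, and the listed values were kept. Relative depth came from the commonest ratio of low values between libraries, and counting intervals could not be given.

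Identifiers were matched to GENCODE M21 (GRCm38), which held 49109 of them, and all 276 list genes were found. The named genes are the 4 members, all genes of the PTH and secretin families, called members of other lists or else the one with the smallest p, other peptide hormones with a group mean of at least 1 FPKM, called neighbours and the 5 genes most like each tested member. Any other gene was named after its values were seen. Members and lists were chosen with earlier results of these data known. Each embryo is 1 sample, and p-values set the difference between groups against the spread between embryos within a group. They do not cover differences between the crosses, which went with genotype. Alternatives were other pseudocounts, filters, scalings and covariates and leaving out each library.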

Additional observations from a re-analysis of the deposited data

How the results depend on the processing

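Of the settings tried, the pseudocount moved the 4 genes most. With 0.1 the log2 differences were 2.61 for Pthlh, -4.94 for Sct, 0.40 for Pth1r and -0.0629 for Sctr, and with 0.01 they were 2.77, -6.20, 0.52 and -0.42. The reported values were 1.73, -3.05, 0.12 and -0.0067. Sctr lay between -0.0100 and 0.0000 with 1 library left out, the latter without wild-type embryo 3. A smaller pseudocount widens ratios of low values by construction. Called genes numbered 829. They numbered 342 without the minimum (293 shared with the 829), which tests more genes, and 545 with the first digit of the sample names as covariate (524 shared). They ranged from 316 (without wild-type embryo 2) to 642 when each library was left out, fits with fewer samples. Calls higher in Sp8 null made up 24.6%, and 37.2%, 41.7% and 48.8% under median-of-ratios, upper-quartile and protein-coding-sum scaling. The median log2 difference of all genes was -0.056, and 0.006, 0.026 and 0.048 under these scalings. Called list members numbered 11, and 7 both without the minimum and with genes restricted to a mean of 5 FPKM or more, 8 to 10 with 1 library left out, and 13, 13 and 14 under the 3 scalings. Called neighbours numbered 1, 0 when restricted to 5 FPKM or more, and 2 under each of the 3 scalings. Of 199 values for the 12 called single genes, 178 kept their call, 21 lost it and none changed direction. Without the minimum the calls of Crhr1, Ramp3, Pcsk5 and Adcy1 were lost (limma adjusted p = 0.0716, 0.062, 0.0621 and 0.144). Calls lost when 1 library was left out were those of Crhr1 (without Sp8 null embryo 1 or 2, or wild-type embryo 1 or 2, limma adjusted p from 0.0535 to 0.068), Ramp3 (without Sp8 null embryo 1, 0.0505), Pcsk5 (without wild-type embryo 2, 0.0589) and Adcy1 (without any 1 of the 6, 0.0778 to 0.157). The cause was not tested.

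The embryo numbers did not pair the libraries, since deviations of same-numbered libraries had correlations of -0.164, -0.145 and -0.07. With the replicate number as a block 328 genes were called, 312 of them shared, and Crhr1 and Adcy1 lost their calls (limma adjusted p = 0.0649 and 0.131). Counts per library were not used, so what depth limits could not be given for single genes.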

Other observations

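Cdhr5, the protein-coding gene next to Sct on its downstream side (chromosome 7, 141269083 to 141276786), was chosen after its values were seen. It was at 0.122, 0.0271 and 0.0654 FPKM in wild-type embryos 1, 2 and 3, at 0.0114 FPKM in Sp8 null embryo 1 and listed at 0 in Sp8 null embryos 2 and 3. Its groups did not overlap, as for Sct, but it was far below the minimum for the test and did not pass without it (limma adjusted p = 0.305), while the authors' deposited table lists a p-value of 0.00268. Drd4, on the other side of Sct, was at 0.143 ± 0.0374 FPKM in wild type and 0.138 ± 0.0770 FPKM in Sp8 null (SD, n = 3 each).

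For Gnas, FPKM and the authors' deposited table differ. FPKM gave 216 and 211 in wild type and Sp8 null, while the deposited means were 223.53 and 317.12 with a fold change of 1.37 and a p-value of 0.000892. The deposited mean of Prkaca in wild type was 1195.64 at 14.1 FPKM, so the deposited mean of Gnas is low for its FPKM. Other genes not called on FPKM also have low p-values in the authors' deposited table, and those given here are examples. The table lists 0 for Plcb1 and Ppargc1a, 2e-06 for Penk, 3e-06 for Arrb1, 8e-06 for Sik3 and 7.8e-05 for Snx27. It also lists 0.000103 for Prkaca, 0.00115 for Pde3b and 0.0128 for Ptch1.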
